A study of Mus musculus with 27 samples.

Results

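The Gadd45 family consists of 3 small genes, Gadd45a, Gadd45b and Gadd45g, and all 3 had an entry of their own among the 59489 entries of the expression table. The entries were found by their gene symbols. They were followed through 27 RNA-seq libraries of polyadenylated RNA from wild-type mouse primary cortical cells, taken at embryonic day 16.5 and kept for 14 days in culture. The 27 libraries form 9 groups of 3, and every group, controls included, carried an inhibitor of transcription. In 3 groups the inhibitor was DRB (50 µM, 2 h), which blocks the step from paused to productive elongation by RNA polymerase II. Of these, 1 group had no stimulus, and the others were treated with bicuculline (20 µM, 1 h) or with BDNF (50 ng/mL, 1 h). Bicuculline lifts the inhibition that GABA exerts through its ionotropic receptors, which increases firing in such cultures, and BDNF is a growth factor that acts on neurons through the receptor TrkB. In the other 6 groups the inhibitor was triptolide (1 µM, 3 h), which blocks initiation through the general factor TFIIH. These cells had no stimulus or bicuculline at the same dose and time, with 1 group of each for whole-cell, nuclear and cytosolic RNA. The labels give no RNA fraction for the DRB libraries and do not state the order in which inhibitor and stimulus were applied. Libraries of cells without an inhibitor were not analysed here.

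Gadd45 proteins are small acidic proteins with no known enzyme activity that act by binding other proteins. They bind and activate the kinase Map3k4, which feeds the p38 and JNK stress kinases, they bind the cell cycle inhibitor p21 and the replication clamp PCNA, and they have been tied to active DNA demethylation. Gadd45a is a classical target of p53 after DNA damage, whereas Gadd45b and Gadd45g are known as early response genes. In mouse neurons Gadd45b is induced by electrical activity and has been linked to demethylation of growth factor gene promoters.

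The cultures carried the transcripts of several cell types. All 9 neuronal markers were at 1 FPKM (fragments per kilobase of transcript, scaled to library depth) or more in every group, and Snap25, a synaptic protein of neurons, lay between 253 and 578 FPKM over the 27 libraries. Astrocytes were present by 7 of 7 markers, with Slc1a3, a glial glutamate transporter, between 210 and 329 FPKM. The summed level of 6 oligodendrocyte markers was 166 to 225 FPKM under DRB and 60.0 to 104 FPKM under triptolide. Of 5 microglial markers, Aif1 lay between 0.856 and 6.003 FPKM and the other 4 did not exceed 0.489 FPKM. Their summed level was 3.05 to 6.14 FPKM under DRB and 1.49 to 3.59 FPKM under triptolide. The 4 vascular markers summed to 1.12 to 2.95 FPKM over the 27 libraries. Pdgfrb reached 1.44, Pecam1 1.01 and Col1a1 0.858 FPKM, and Cldn5 did not exceed 0.00945 FPKM. Depth, estimated from the steps between low values, was 83419506 to 147958945 fragments per DRB library and 67586706 to 89454351 per triptolide library. The DRB libraries with replicate number 2 stood apart from the other 6 on the first principal component, which held 51.5% of the variance. In RNA from mixed cultures, fewer cells of a type and less RNA per cell cannot be told apart.

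The 3 genes share a compact structure of 4 exons and lie on different chromosomes of mm10. Gadd45b (GSMG0003283) lies at chr10:80930072-80932204 on the plus strand, with a transcript of 1284 bases and a coding length of 480 bases. Gadd45g (GSMG0009770) lies at chr13:51846670-51848475 on the plus strand, with a transcript of 1071 bases and a coding length of 477 bases. Gadd45a (GSMG0033107) lies at chr6:67035096-67037407 on the minus strand, with a transcript of 1223 bases and a coding length of 495 bases. GENCODE M21 lists a retained-intron transcript for each, 1 of 3 transcripts for Gadd45b, 1 of 2 for Gadd45g and 4 of 7 for Gadd45a. The deposited values are per gene, so transcripts that keep an intron and spliced ones are not separated. An antisense long noncoding RNA, E230016M11Rik, covers all 238 bases of exon 3 of Gadd45a (chr6:67036678-67036915), 19.5% of its transcript. The strand setting of the counting is not given in the sources used here, so reads of the 2 genes cannot be told apart there.

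The promoters are shown because Gadd45b and Gadd45g rose together while Gadd45a stayed low. A link between their motifs and these responses was not tested. Each sequence is from RefSeq on GRCm38.p6 and runs 5′ to 3′ on the gene's strand, from 250 bases before the RefSeq start to 50 bases from it on. Gadd45b is chr10:80929841-80930140 (+), Gadd45g is chr13:51846425-51846724 (+) and Gadd45a is chr6:67037358-67037657 (-). Capitals mark the TATA box (TATAAA), the CCAAT box, the E-box (CACGTG) and the octamer (ATTTGCAT) on either strand.
Gadd45b: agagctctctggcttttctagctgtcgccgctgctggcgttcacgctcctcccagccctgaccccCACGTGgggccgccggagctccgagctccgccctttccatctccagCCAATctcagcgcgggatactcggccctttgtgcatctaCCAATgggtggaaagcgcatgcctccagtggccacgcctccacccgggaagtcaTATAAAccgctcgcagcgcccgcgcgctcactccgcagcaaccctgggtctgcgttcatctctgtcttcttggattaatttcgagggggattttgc
Gadd45g: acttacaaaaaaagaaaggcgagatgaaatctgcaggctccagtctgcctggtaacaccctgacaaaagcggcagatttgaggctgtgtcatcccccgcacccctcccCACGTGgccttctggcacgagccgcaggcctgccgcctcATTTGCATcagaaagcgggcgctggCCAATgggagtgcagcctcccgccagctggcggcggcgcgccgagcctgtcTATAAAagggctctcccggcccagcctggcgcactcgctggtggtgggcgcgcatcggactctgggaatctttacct
Gadd45a: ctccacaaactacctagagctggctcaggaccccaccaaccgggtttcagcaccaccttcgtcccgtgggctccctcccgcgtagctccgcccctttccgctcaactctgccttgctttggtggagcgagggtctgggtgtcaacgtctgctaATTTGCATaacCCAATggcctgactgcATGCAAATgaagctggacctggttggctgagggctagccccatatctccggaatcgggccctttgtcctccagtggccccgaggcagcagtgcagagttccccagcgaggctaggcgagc
TATAAA, the core of the TATA box, begins 46 bases upstream of the start in Gadd45b and 27 bases upstream in Gadd45g, and has no match in the Gadd45a window. Over 32851 promoter windows of this length, 13.62% hold it. CACGTG, an E-box, begins 185 bases upstream in Gadd45b and 142 bases upstream in Gadd45g, with no match in Gadd45a, and 7.15% of windows hold it. CCAAT has a match in all 3 windows and in 37.41% of all windows. ATTTGCAT, the octamer, has 2 matches in Gadd45a and 1 in Gadd45g, and 1.735% of windows hold it. The cyclic AMP response element TGACGTCA, its core TGACG, the AP-1 site TGANTCA and the core of the serum response element have no match in these 3 windows. Of all windows, 1.79%, 20.81%, 7.808% and 1.629% hold them. GGGCGG, the Sp1 box, has 1 match in Gadd45a and 1 in Gadd45b, and 35.66% of windows hold it. In the 3′ untranslated regions of GENCODE M21, ATTTA, the core of the AU-rich element of unstable mRNAs, has 2 matches in Gadd45a and none in Gadd45b or Gadd45g, and 63.28% of 20456 genes have at least 1.

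Bicuculline under DRB raised Gadd45b and Gadd45g, both from low levels in unstimulated cells. Gadd45g was the most abundant member of the family in all 9 DRB libraries, and Gadd45a stayed below 1 FPKM in all 27 libraries. Gadd45b stood at 0.919, 1.63 and 1.11 FPKM in the unstimulated libraries with replicate numbers 1, 2 and 3, and at 7.62, 11.9 and 9.43 FPKM with bicuculline. Every bicuculline library was above every unstimulated one, and within replicate numbers the ratios were 8.28, 7.33 and 8.5. The means were 1.22 ± 0.367 and 9.66 ± 2.17 FPKM (SD, n = 3), 7.92-fold apart. In limma's test the log2 change of FPKM + 0.5 was 2.56 ± 0.19 (SE), adjusted p = 4.04e-04. The pseudocount of 0.5 understates the change of genes this low.

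Gadd45g, which shares with Gadd45b the binding of Map3k4 and is known from cytokine responses, had the larger change. Its unstimulated values were 3.22, 4.95 and 4.67 FPKM and its bicuculline values were 35.1, 38.3 and 45.5 FPKM. The groups did not overlap, and the ratios within replicate numbers were 10.9, 7.75 and 9.75. The means of 4.28 ± 0.928 and 39.7 ± 5.34 FPKM (SD, n = 3) differed 9.27-fold, and limma's log2 change was 3.08 ± 0.17 (SE), adjusted p = 9.98e-05. Of 13321 genes tested 0.308% were called higher, and the 2 tested members of the family were both among them. By log2 change Gadd45g ranked 5 and Gadd45b ranked 7 among all rises. Every bicuculline library exceeded every unstimulated one in 3.99% of genes.

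BDNF under DRB raised the same 2 genes, measured against the same 3 unstimulated libraries as bicuculline. Gadd45b reached 8.20, 10.3 and 9.48 FPKM (mean 9.34 ± 1.08, SD, n = 3), all above the unstimulated libraries, with a log2 change of 2.53 ± 0.19 (SE), adjusted p = 3.22e-04 in limma's test. Gadd45g reached 17.5, 22.9 and 23.8 FPKM (mean 21.4 ± 3.39, SD, n = 3), again without overlap, with a log2 change of 2.20 ± 0.17 (SE), adjusted p = 3.98e-04 in limma's test. BDNF libraries held 5.0-fold more Gadd45g RNA than unstimulated ones by the means. Of the 13321 genes 0.638% were called higher, BDNF libraries lay above unstimulated ones without overlap in 6.85%, and among rises Gadd45b ranked 13 and Gadd45g ranked 15.

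**Figure D1:**
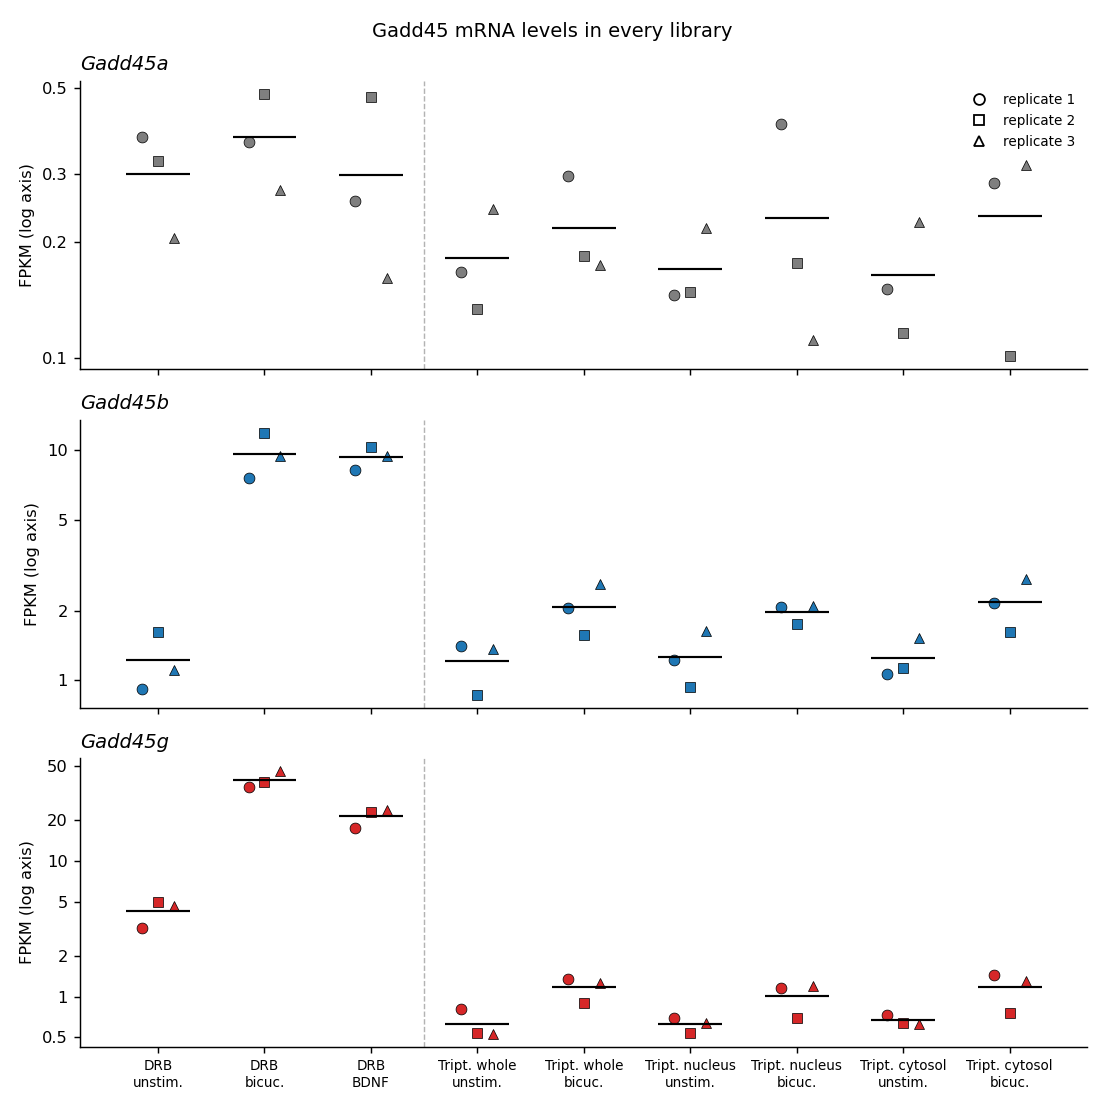
FPKM of Gadd45a, Gadd45b and Gadd45g in each of the 27 libraries, on log axes that differ between panels, with a bar at each group mean and a symbol for each replicate number; DRB groups lie left of the dashed line and triptolide groups right of it. The 3 bicuculline libraries under DRB hold 35.1 to 45.5 FPKM of Gadd45g and the 3 unstimulated ones 3.22 to 4.95, whereas Gadd45a overlaps between neighbouring groups.

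Between the 2 stimuli, Gadd45g was lower with BDNF in every library, while Gadd45b did not differ detectably. For Gadd45b the difference of BDNF minus bicuculline was -0.03 ± 0.19 (log2, SE), with a 95% interval from -0.46 to 0.40 and adjusted p = 1.00 in limma's test. For Gadd45g it was -0.88 ± 0.17, with a 95% interval from -1.27 to -0.49. Each of the 3 BDNF libraries lay below each of the 3 bicuculline libraries, as in 2.55% of all genes. The unadjusted p was 7.26e-04 and limma's adjusted p over 13321 genes was 0.205, so this difference did not pass the test. Blocking on replicate number gave adjusted p = 0.00515 in limma's test, in a fit that called 0.0901% of genes lower with BDNF, against 0.015% without the block. Only 4 genes of the 13321 had a more negative difference than Gadd45g, which ranked 13317.

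Gadd45a, the family member best known as a p53 target, was low throughout. Under DRB it stood at 0.374, 0.323 and 0.204 FPKM unstimulated, at 0.363, 0.483 and 0.273 with bicuculline and at 0.255, 0.476 and 0.161 with BDNF. The 3 groups overlapped, with means of 0.30 ± 0.0873, 0.373 ± 0.106 and 0.297 ± 0.162 FPKM (SD, n = 3). These values rest on about 11 to 86 fragments per library over the 27 libraries, against 86 to 1964 for Gadd45b and 41 to 6502 for Gadd45g. Gadd45a passed the filter on low values in no fit and had no test there. On the log2 scale of FPKM + 0.5 it differed from unstimulated cells by 0.12 with bicuculline and by -0.02 with BDNF. Without the filter, limma gave adjusted p = 1 for both, with unadjusted p of 0.462 and 0.909. The SE in that fit was 0.16 for both. No change of Gadd45a was thus detected. Its values lie below the pseudocount of 0.5, which shrinks both these differences and this SE. Without a pseudocount the differences of mean log2 FPKM were 0.32 with bicuculline and -0.11 with BDNF. Changes of the RNA itself that are larger than this SE could therefore also be missed at this depth.

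**Figure D2:**
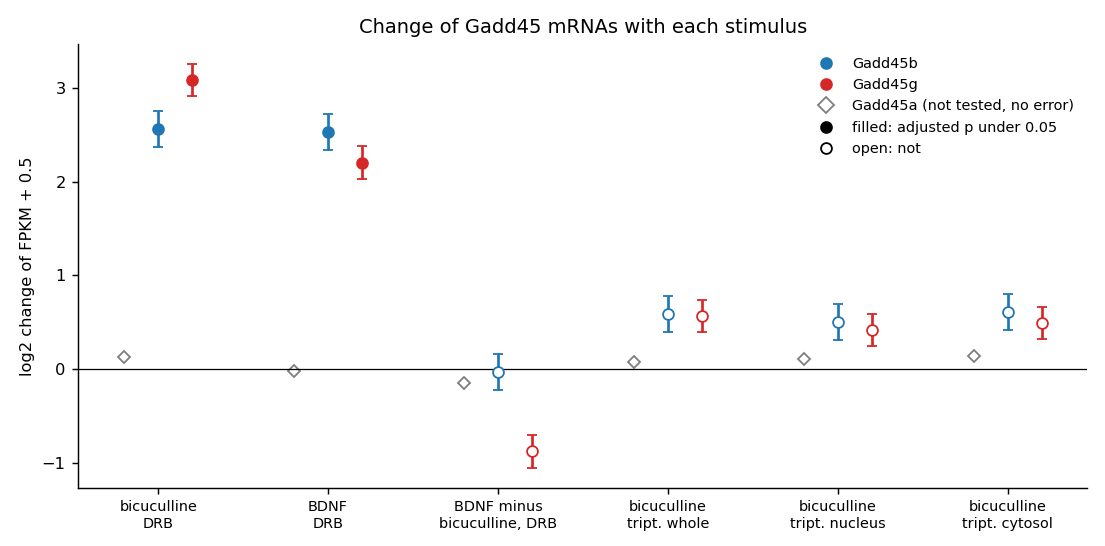
Log2 change of FPKM + 0.5 in 6 comparisons for Gadd45b and Gadd45g, with bars of 1 SE from limma, and for Gadd45a as the difference of group means with no error; filled circles passed an adjusted p of 0.05 and open ones did not. Gadd45b and Gadd45g lie at 2.20 to 3.08 with either stimulus under DRB and at 0.41 to 0.61 with bicuculline under triptolide, with Gadd45a between -0.14 and 0.13.

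Under triptolide, Gadd45b and Gadd45g were higher with bicuculline in each of 3 replicate pairs of each RNA fraction, by far less than under DRB. The share of all genes that were higher in all 3 pairs was not computed, so this count is a description. In whole cells Gadd45b stood at 1.40, 0.863 and 1.37 FPKM unstimulated and at 2.05, 1.57 and 2.62 with bicuculline, without overlap. The log2 difference was 0.59 ± 0.19 (SE), with adjusted p = 0.233 in limma's test and 0.00649 with replicate number as a block. Gadd45g stood at 0.813, 0.538 and 0.533 FPKM unstimulated and at 1.34, 0.903 and 1.26 with bicuculline, also without overlap. Its log2 difference was 0.56 ± 0.17 (SE), with adjusted p = 0.196 in limma's test and 0.0136 with the block. Neither gene passed the test without the block and both passed with it. The 3 RNA fractions share replicate numbers and may come from the same cultures, so they are not independent repeats of the response. The block does not take up a deviation that the fractions of 1 replicate number and treatment share. Of 14205 genes, 0.0141% were called higher without the block and 3.72% with it, and groups did not overlap upward in 12.6%. Gadd45g reached the filter of 1 FPKM only in 6 libraries, all given bicuculline, so its place among the tested genes depends on the group in which it was higher. The means were 1.21 ± 0.303 and 2.08 ± 0.527 FPKM (SD, n = 3) for Gadd45b and 0.628 ± 0.160 and 1.17 ± 0.234 FPKM for Gadd45g. Bicuculline means were 1.72-fold and 1.86-fold those of unstimulated cells.

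The nuclear and cytosolic fractions held values of the same order. In nuclei Gadd45b was at 1.23, 0.931 and 1.64 FPKM unstimulated and at 2.08, 1.75 and 2.11 with bicuculline, and the groups did not overlap. Its log2 difference was 0.51 ± 0.19 (SE), with adjusted p = 0.182 in limma's test and 0.00430 with the block. Nuclear Gadd45g was at 0.698, 0.537 and 0.634 FPKM unstimulated and at 1.15, 0.693 and 1.19 with bicuculline, and here replicate number 2 with bicuculline fell within the unstimulated range. Its log2 difference was 0.41 ± 0.17 (SE), with adjusted p = 0.221 in limma's test and 0.0231 with the block. As in whole cells, Gadd45g was among the tested genes only through bicuculline libraries. Of the 14205 genes, 0.986% were called higher in nuclei without the block and 7.72% with it, and groups did not overlap upward in 9.48%.

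In the cytosol Gadd45b was at 1.07, 1.13 and 1.53 FPKM unstimulated and at 2.17, 1.63 and 2.75 with bicuculline. The log2 difference was 0.61 ± 0.19 (SE), with adjusted p = 0.0904 in limma's test and 0.00169 with the block. Cytosolic Gadd45g was at 0.736, 0.637 and 0.627 FPKM unstimulated and at 1.45, 0.759 and 1.3 with bicuculline. Its log2 difference was 0.49 ± 0.17 (SE), with adjusted p = 0.120 in limma's test and 0.00884 with the block. Here too Gadd45g was among the tested genes only through bicuculline libraries. Neither gene's groups overlapped, and replicate number 2 gave the lowest bicuculline value of both genes. Of the genes tested, 3.18% were called higher in the cytosol without the block and 14.5% with it, and groups did not overlap upward in 22.3%. The median of all genes was 0.08 higher with bicuculline in the cytosol on the log2 scale. After median-ratio scaling of the libraries Gadd45b differed by 0.53 and Gadd45g by 0.43.

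**Figure D3:**
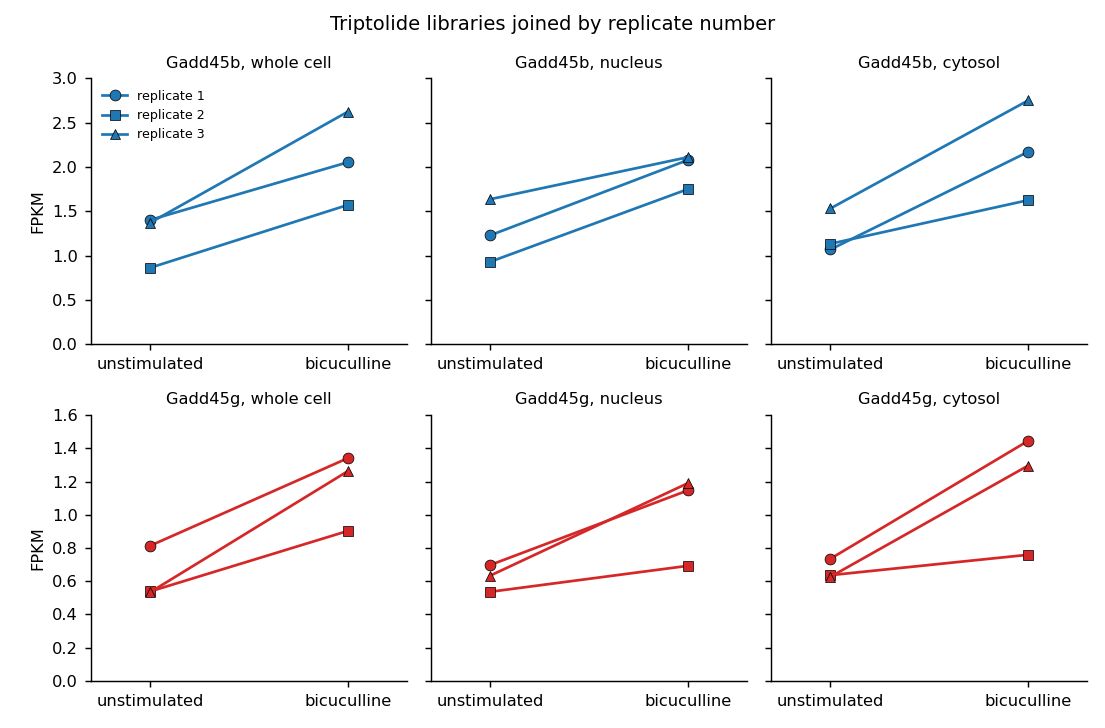
FPKM of Gadd45b (upper row) and Gadd45g (lower row) in unstimulated and bicuculline libraries under triptolide, with lines joining libraries of the same replicate number. Every line goes up, and the share of all genes for which this holds was not computed. Replicate number 2 has the lowest bicuculline value in all 6 panels, between 1.57 and 1.75 FPKM for Gadd45b and between 0.693 and 0.903 FPKM for Gadd45g.

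The bicuculline response did not differ detectably between nucleus and cytosol. For Gadd45b the nuclear minus the cytosolic response was -0.10 ± 0.27 (log2, SE), with a 95% interval from -0.67 to 0.47 and adjusted p = 0.889 in limma's test. For Gadd45g it was -0.08 ± 0.24, with a 95% interval from -0.59 to 0.43 and adjusted p = 0.908. These intervals hold differences as large as the responses themselves. With replicate number as a block the 95% intervals ran from -0.40 to 0.19 for Gadd45b, with responses of 0.51 in nuclei and 0.61 in cytosol, and from -0.41 to 0.25 for Gadd45g, with responses of 0.41 and 0.49. In this comparison 0.0845% of genes were called higher and 0.472% lower.

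Nuclear and cytosolic levels of the family were also close, in libraries where most genes differed between the fractions. In unstimulated cells 39% of genes were called higher in the nucleus and 28% lower, and with bicuculline 31.3% and 31.9%. The nucleus minus cytosol difference of Gadd45b was 0.01 ± 0.19 (log2, SE) unstimulated and -0.09 ± 0.19 with bicuculline, with adjusted p of 0.977 and 0.683 in limma's test. For Gadd45g it was -0.06 ± 0.17 and -0.14 ± 0.17, with adjusted p of 0.785 and 0.503. FPKM is relative to each library's own total, so equal values do not mean equal amounts per cell. All 5 nuclear noncoding RNAs of a list, among them Mirg, Meg3 and Snhg11, were called higher in the nucleus. Their median log2 difference was 2.89 in unstimulated cells, and the list was chosen with earlier results of these data known. The antisense RNA E230016M11Rik was also nuclear, at 1.95 ± 0.10 unstimulated (adjusted p = 4.54e-10, limma), whereas Gadd45a differed by 0.02. Cdkn1a, which encodes p21, and Gadd45gip1, which encodes a mitochondrial ribosome protein that binds Gadd45 proteins, were lower in the nucleus by -0.34 and -0.27 (adjusted p = 0.00308 and 0.0150, limma).

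**Figure D4:**
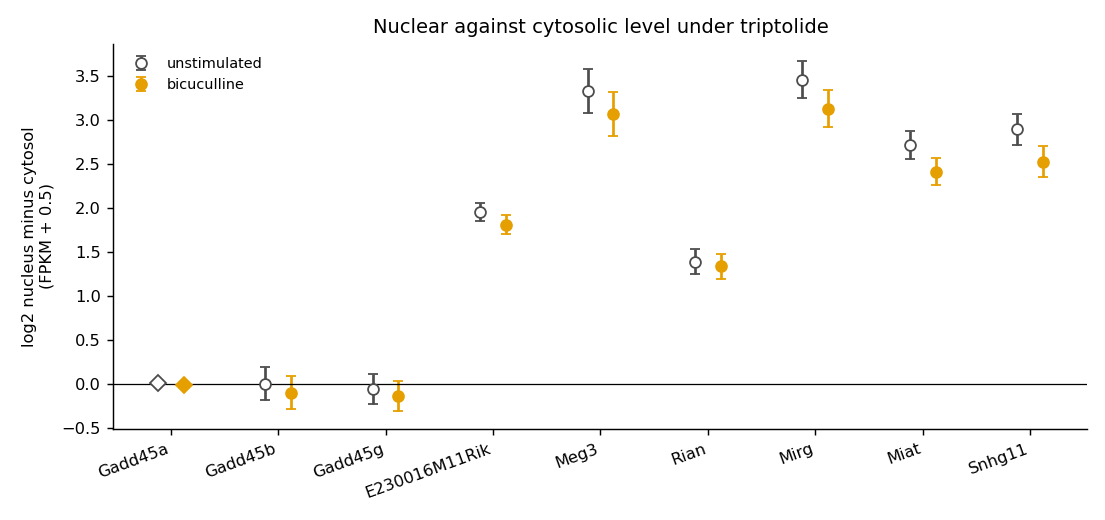
Log2 difference of FPKM + 0.5 between nucleus and cytosol under triptolide in unstimulated (open) and bicuculline (filled) libraries, with bars of 1 SE from limma, except Gadd45a (diamonds), which is the difference of group means. The 3 Gadd45 genes lie between -0.14 and 0.02, against 1.81 to 1.95 for E230016M11Rik, the RNA antisense to Gadd45a.

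Gadd45a under triptolide ranged from 0.101 to 0.403 FPKM over the 18 libraries, and bicuculline and unstimulated groups overlapped in each fraction. The log2 differences of FPKM + 0.5 with bicuculline were 0.07 in whole cells, 0.11 in nuclei and 0.13 in the cytosol. Without the pseudocount, which shrinks changes of values this low, they were 0.26, 0.25 and 0.40. Without the filter limma gave adjusted p of 1, 0.803 and 1, with unadjusted p of 0.607, 0.466 and 0.353. The nuclear values with bicuculline, 0.403, 0.176 and 0.111 FPKM, spanned more than any unstimulated group. E230016M11Rik lay between 3.23 and 4.62 FPKM in the 6 nuclear libraries and between 0.580 and 0.823 FPKM in the 6 cytosolic ones.

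The response to bicuculline was tested for a difference between DRB and whole cells under triptolide in 12 libraries. For Gadd45g the response was larger under DRB by 2.52 ± 0.24 (log2, SE; 95% interval 2.0 to 3.04), adjusted p = 8.58e-04 in limma's test. For Gadd45b it was larger by 1.97 ± 0.30 (95% interval 1.31 to 2.63), adjusted p = 0.0278 in limma's test. Of 13814 genes, 0.138% were called higher, both genes among them. With a pseudocount of 0.1 the difference for Gadd45g was 2.39 (adjusted p = 0.0107 in limma's test). Without a pseudocount the differences of mean log2 FPKM were 2.33 for Gadd45g and 2.22 for Gadd45b. The call of Gadd45b was lost with a pseudocount of 0.1 (2.16, adjusted p = 0.0728) and without the filter on low values (adjusted p = 0.105). It was also lost in 8 of 12 fits that left out 1 library. These were DRB unstimulated 1 and 3, DRB bicuculline 2 and 3, triptolide unstimulated 1 and 3 and triptolide bicuculline 1 and 2, and over all 12 fits the difference was 1.82 to 2.14 with adjusted p of at most 0.133. The inhibitor, its duration and the set of cultures differed together between these libraries, and their parts cannot be told apart. Gadd45g reached 1 FPKM in 8 of the 12 libraries, all 6 under DRB and 2 with bicuculline under triptolide.

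Before any stimulus the 2 inhibitors already went with different levels of Gadd45g. Unstimulated cells held 3.22 to 4.95 FPKM under DRB and 0.533 to 0.813 FPKM in whole cells under triptolide, without overlap. This difference was not tested, and the share of all genes without overlap between these groups was not computed. Gadd45b was at 0.919 to 1.63 FPKM and 0.863 to 1.40 FPKM in the same groups, which overlapped. The summed oligodendrocyte markers moved with this split, at 170 to 222 FPKM and 70.4 to 85.7 FPKM, and so did the proliferation markers, at 9.82 to 20.0 FPKM and 6.94 to 9.40 FPKM, and the microglial markers, at 3.35 to 5.46 FPKM and 1.86 to 2.82 FPKM. Summed neuronal markers were at 2335 to 2476 FPKM and 1979 to 2002 FPKM. Summed astrocyte markers were lower under DRB, at 401 to 456 FPKM, than under triptolide, at 516 to 595 FPKM. None of these 5 sums overlapped between the groups, whereas the vascular sums, at 1.297 to 1.51 FPKM and 1.47 to 1.87 FPKM, did. The part of these differences in the Gadd45g level was not tested.

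Over the 9 groups the order of levels differed between the genes. Gadd45g was highest with bicuculline under DRB, then with BDNF, then in unstimulated cells under DRB, and none of these neighbours overlapped. The next step, to 1.17 FPKM in whole cells with bicuculline under triptolide, also showed no overlap, while the remaining neighbours overlapped. Gadd45b was highest with bicuculline and BDNF under DRB, which overlapped, and then came, without overlap, 2.18 ± 0.563 FPKM in the next group, cytosol with bicuculline under triptolide. A second gap lay between nuclei with bicuculline (1.98 ± 0.20 FPKM) and unstimulated nuclei (1.27 ± 0.355 FPKM), and the other neighbours overlapped. Among all tested genes under DRB, 2.55% lay lower with BDNF than with bicuculline without overlap, and 6.85% lay higher with BDNF than unstimulated. In nuclei, 9.48% lay higher with bicuculline without overlap. For the steps between the inhibitors no such share was computed, so those gaps are a description. For Gadd45a every neighbour in the order overlapped, from 0.373 FPKM with bicuculline under DRB to 0.164 FPKM in unstimulated cytosol. Among genes with a symbol and a value above 0, Gadd45g exceeded 55.1% in unstimulated cells under DRB and 89.2% with bicuculline, and 38.4% in unstimulated whole cells under triptolide.

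The make-up of the family, as shares of its summed FPKM, differed between the inhibitors. Under DRB Gadd45g made up 73.7% ± 3.77 of the sum in unstimulated cells, 79.8% ± 3.74 with bicuculline and 68.9% ± 1.99 with BDNF (SD, n = 3). Under triptolide Gadd45b was the largest member, with group means of 59.6 to 62.0%, and Gadd45g held 30.8 to 33.8%. The ratio of Gadd45g to Gadd45b was 3.58 ± 0.590 in unstimulated cells under DRB, 4.22 ± 0.877 with bicuculline and 2.29 ± 0.194 with BDNF. It lay between 3.21 and 4.83 with bicuculline and between 2.14 and 2.51 with BDNF, so these groups did not overlap. This restates the lower Gadd45g with BDNF, which did not pass limma's test without the block (adjusted p = 0.205). The ratio itself was not tested, and no share of other ratios without overlap was computed. In the 6 triptolide groups the mean ratio was 0.504 to 0.569. The summed level of the family under DRB was 5.80 ± 1.2 FPKM in unstimulated cells, 49.7 ± 6.14 with bicuculline and 31.0 ± 4.39 with BDNF. It lay between 2.02 and 3.58 FPKM in the triptolide group means.

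**Figure D5:**
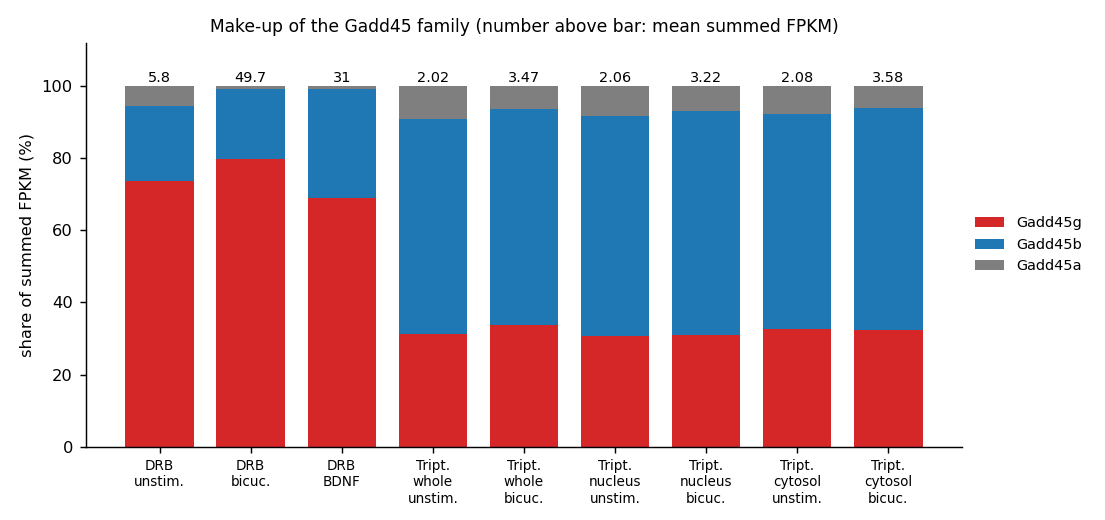
Mean share of each gene in the summed FPKM of the family (vertical axis, %) in each of the 9 groups, with the mean summed FPKM above each bar. Gadd45g holds 68.9 to 79.8% under DRB and 30.8 to 33.8% under triptolide.

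The genes whose levels followed each member most closely were found by Pearson's r over the 9 group means of log2(FPKM + 0.5), among 3117 genes whose means spanned at least 1 on that scale. The groups share inhibitors and replicate numbers and are not independent, so r is given as a description. For Gadd45g they were Nr4a1 (0.988), Npas4 (0.986), Fosl2 (0.983), Fos (0.983) and Nfil3 (0.981), all of which encode transcription factors. For Gadd45b they were Fosb (0.968), Arc (0.963), Errfi1 (0.958), Fos (0.95) and Spty2d1 (0.943). Fos, Fosb, Npas4, Nr4a1 and Arc are textbook immediate early genes of neurons, and Errfi1 encodes a feedback inhibitor of the EGF receptor. Gadd45a, whose own means spanned 0.39, came closest to Mfhas1, Amer3, Palm3, Ccdc92b and Trib2, with r of 0.967 to 0.969. Between members r was 0.907 for Gadd45b with Gadd45g, 0.917 for Gadd45a with Gadd45g and 0.757 for Gadd45a with Gadd45b.

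The partners and pathways of Gadd45 proteins mostly did not pass the test under DRB. With bicuculline none of 13 tested genes of the p38 and JNK cascade, 6 binding partners, 11 genes of DNA demethylation and base excision, 10 AU-rich element binding proteins or 11 upstream transcription factors was called, against 0.308% of all genes. At an unadjusted p under 0.05, 1 upstream factor and none of the other 4 lists' genes was higher, against 1.79% of all genes. Median log2 changes of these lists ran from -0.04 to 0.08, with 0.00 over all genes. Map3k4, the kinase that Gadd45 proteins activate, differed by -0.04 ± 0.08 (log2, SE), Cdkn1a by 0.13 ± 0.12 and Gadd45gip1 by 0.08 ± 0.11. Of 14 tested genes of p53 and its targets, 1 was called higher, the antiproliferative and activity-induced gene Btg2 (1.69 ± 0.15, adjusted p = 0.00130, limma). Trp53 itself differed by -0.01 ± 0.12. Of 11 tested genes of the integrated stress response 2 were called higher, namely Atf3, a transcription factor (1.44 ± 0.20, adjusted p = 0.0248), and Ppp1r15a, a phosphatase subunit also known as Gadd34 (0.58 ± 0.08, adjusted p = 0.0262). Atf3 averaged 0.331 FPKM in unstimulated cells and 1.75 FPKM with bicuculline. It passed the filter of 1 FPKM only through stimulated libraries, so its place among the tested genes depends on the groups in which it was higher. Ddit3, also known as Gadd153, differed by 0.18 ± 0.13. At an unadjusted p under 0.05 in limma's test, 4 of 11 stress response genes and 2 of 14 of p53 and its targets were higher, against 1.79% of all genes. The median log2 changes of these lists were 0.18 and 0.05. Btg2 was called in all 6 fits that left out 1 library but not without the 3 libraries of replicate number 2 (adjusted p = 0.0583). Ppp1r15a was called in none of the 6 (adjusted p 0.0606 to 0.145), and Atf3 was lost without unstimulated 1 or 3 or bicuculline 1 or 2 (adjusted p up to 0.154). Without the filter on low values Atf3 and Ppp1r15a were also lost (adjusted p = 0.0825 and 0.0797).

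With BDNF the same lists gave more calls, against 0.638% of all genes. Btg2 rose by 2.98 ± 0.15 (log2, SE; adjusted p = 2.60e-05, limma) and Plk3, a stress-responsive kinase, by 0.79 ± 0.11 (adjusted p = 0.0162), 2 of 14 genes of p53 and its targets. In the integrated stress response 3 of 11 were called, Atf3 (1.59 ± 0.20), Ppp1r15a (0.89 ± 0.08) and Ddit4 (0.39 ± 0.07). Of these, Atf3 entered the test only through stimulated libraries, with means of 0.331 FPKM unstimulated and 1.99 FPKM with BDNF. At an unadjusted p under 0.05 in limma's test, 4 of 11 stress response genes and 3 of 14 of p53 and its targets were higher, against 3.34% of all genes. The median log2 changes of these lists were 0.31 and 0.06. Among upstream transcription factors 2 of 11 were called, Srf, the serum response factor (1.05 ± 0.13), and Rela, an NF-κB subunit (0.53 ± 0.07). Btg2, Ppp1r15a and Srf were called in all 6 fits that left out 1 library. Atf3 lost the call without unstimulated 1 or 3, Plk3 and Rela also without BDNF 2 or 3, and Ddit4 without those or BDNF 1, with adjusted p of at most 0.215. Without the filter Plk3 and Ddit4 were lost (adjusted p = 0.0512 and 0.0898), and the block raised the calls in the stress response to 4 of 11, in a fit that called 1.46% of all genes higher. None of the p38 and JNK, binding partner, demethylation or AU-rich element lists gave a call, and none of their genes had an unadjusted p under 0.05, against 3.34% of all genes higher at that level. The neuronal, astrocyte and oligodendrocyte markers gave no call with either stimulus under DRB. Between BDNF and bicuculline, Btg2 was higher with BDNF by 1.29 ± 0.15 (adjusted p = 0.0154, limma), a call lost without bicuculline 1 or 3, without BDNF 2, without all replicate number 2 libraries or without the filter (adjusted p of at most 0.159). In that comparison 0.113% of genes were called higher. Gadd45g stood the other way, higher with bicuculline in every library.

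Under triptolide the lists gave calls in the cytosol. There Map3k4 (0.35 ± 0.09, log2, SE; adjusted p = 0.0394, limma) and Mapk14, which encodes p38α (0.32 ± 0.08, adjusted p = 0.0346), were called higher with bicuculline, 2 of 13 genes of the cascade. Tet2, which oxidises 5-methylcytosine, was higher by 0.63 ± 0.09 (adjusted p = 0.00821), 1 of 11 demethylation genes, and Crebbp (0.33 ± 0.07) and Srf (0.34 ± 0.09) were 2 of 11 upstream factors. Map3k4 was also the 1 call of 6 binding partners, and no gene of the p53, stress response or AU-rich element lists was called. These counts stand against 3.18% of all genes and a median of 0.08. Median-ratio scaling removed the calls of Map3k4, Mapk14, Crebbp and Srf, omitting the filter removed all of these but that of Crebbp, and the 6 fits that left out 1 cytosol library kept only Map3k4 and Crebbp without unstimulated 2 and Srf without unstimulated 3. Tet2 was lost without unstimulated 3 (adjusted p = 0.0549). The response of Tet2 was lower in the nucleus than in the cytosol by -0.77 ± 0.13 (adjusted p = 0.0193, limma), lost without nuclear unstimulated 1 or 3, nuclear bicuculline 1 or 3, cytosolic unstimulated 3 or cytosolic bicuculline 1 (adjusted p up to 0.0712) and without the filter on low values (adjusted p = 0.0538). In whole cells and in nuclei no gene of the 7 lists of partners and pathways was called.

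With replicate number as a block, which raised the share of all genes called, the lists gave more calls. In the cytosol 5 of 13 genes of the cascade, 1 of 6 binding partners, 5 of 15 of p53 and its targets and 3 of 10 of the stress response were called higher, against 14.5% of all genes. There 3 of 11 demethylation genes, 0 of 11 AU-rich element binding proteins and 6 of 11 upstream factors were called higher. In whole cells the counts were 3 of 13, 1 of 6, 2 of 15 and 1 of 10 for the first 4 lists and 0, 1 and 2 of 11 for the other 3, against 3.72%. In nuclei they were 1 of 13, 0 of 6, 1 of 15 and 3 of 10, and 0, 3 and 1 of 11, against 7.72%, with 1 gene of p53 and its targets and 1 demethylation gene called lower. Without the block, the counts of genes higher at an unadjusted p under 0.05 were, in the same order, 3, 1, 2, 1, 3, 0 and 4 in whole cells, against 8.88% of all genes, and 0, 0, 1, 1, 0, 3 and 2 in nuclei, against 8.63%, where 1 demethylation gene was lower.

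Among cell type markers in nuclei, 1 of 9 neuronal markers, Syt1, was called higher by 0.20 ± 0.05 (log2, SE; adjusted p = 0.0441 in limma's test, lost without unstimulated 1 or 3 or bicuculline 1 or 3), against 0.986% of all genes. At an unadjusted p under 0.05, 5 of 9 were higher, and with the block 4 of 9 were called higher and 1 of 7 astrocyte markers lower. Summed neuronal markers in nuclei were 1518 to 1600 FPKM unstimulated and 1626 to 1853 FPKM with bicuculline. The part of this difference in the nuclear Gadd45 values was not tested.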

How the data were processed

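Polyadenylated RNA of 27 libraries, 3 in each of 9 groups, was measured, and the authors deposited 1 table of FPKM per gene on the FASTDB gene models. The build was mm10 and the tools were FastQC, Picard, SAMtools and STAR 2.4.0, per the submitters' processing notes; the kit was a stranded mRNA kit, per the labels' protocols. How reads were counted, with which strand setting, and what was done with multiply mapping reads is not given in the sources used here. The deposited FPKM were tested without rescaling on the scale log2(FPKM + 0.5). Genes with at least 1 FPKM in at least 3 libraries of a fit were tested with limma 3.58.1 (trend, robust, two-sided) in R 4.3.3, with calls made below 0.05 after Benjamini-Hochberg adjustment over all genes tested, namely 13321 under DRB, 14205 under triptolide and 13814 in the joint fit of 12 libraries. There were 10 comparisons. The fit was tested on simulated data. FPKM are not counts, so no count test was run; depth was estimated from the steps of low values in 2177 single-exon entries. Alternatives were a pseudocount of 0.1, no filter, median-ratio scaling, replicate number as a block, and leaving out each library in turn; leaving out all DRB libraries with replicate number 2 was chosen after seeing the data.

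Same-numbered libraries deviated together: the correlation of their deviations from group means was at least 0.463 under DRB (9 pairs) and at least 0.256 under triptolide (45 pairs). The sample descriptions give them a shared part of the name, at its end under DRB and at its start under triptolide. The numbers were therefore used to pair libraries in the ratios within replicate numbers and in the block. The main tests did not use this pairing. The labels do not state separate animals, so p-values measure only the spread between these libraries, which may be technical. The members and the 14 gene lists were chosen with earlier results of these data known. From a list, at most the 3 called genes with the largest change were named, plus Map3k4, Gadd45gip1, Cdkn1a, Trp53 and Ddit3; genes of like pattern were the 5 with the highest r. Map2k7 and Tdg, which share merged entries with neighbours, were left out of the lists. Motifs and overlaps used Python 3.11.15, pandas 2.3.3 and numpy 2.4.6, with figures by matplotlib 3.10.9.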

Additional observations from a re-analysis of the deposited data

Results flagged for a closer look

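The bicuculline responses of Gadd45b and Gadd45g differed between DRB and whole cells under triptolide by the test of the difference itself, by 1.97 ± 0.30 for Gadd45b and 2.52 ± 0.24 for Gadd45g (log2, SE; adjusted p = 0.0278 and 8.58e-04, limma), both larger under DRB. Within replicate numbers, bicuculline libraries under DRB held 7.33 to 8.5 times the Gadd45b of unstimulated ones and 7.75 to 10.9 times the Gadd45g.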

How the results depend on the processing

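The rises of Gadd45b and Gadd45g with bicuculline and with BDNF under DRB and the larger response of Gadd45g under DRB than under triptolide were called under every alternative run. With replicate number as a replicate block, 7 differences of members that were not called became called, at unchanged size: -0.88 for Gadd45g between BDNF and bicuculline, and under triptolide 0.59, 0.51 and 0.61 for Gadd45b and 0.56, 0.41 and 0.49 for Gadd45g in whole cells, nuclei and cytosol. The block changed no other call of a member. The triptolide fractions share replicate numbers and are not independent repeats, and Gadd45g entered that fit only through bicuculline libraries. The call of Gadd45b between DRB and triptolide was lost with a pseudocount of 0.1 (2.16) and without the filter (1.97). Gadd45b between BDNF and bicuculline turned from -0.03 to 0.053 without replicate number 2 in all DRB groups, and between nucleus and cytosol unstimulated from 0.01 to -0.056 with median-ratio scaling; Trp53 with bicuculline under DRB turned from -0.01 to 0.077 without replicate number 2; none of these was called. The cause was not tested.

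With the block the number of genes called went from 41 to 76 for bicuculline under DRB, 85 to 199 for BDNF, 17 to 72 between them, 5 to 601 in whole cells, 257 to 1862 in nuclei, 465 to 2175 in cytosol, 79 to 1387 for the difference of nucleus and cytosol and 19 to 38 between DRB and triptolide. Without the filter it was 561 in nuclei, 106 in cytosol, 29 for their difference, and 19387 and 16850 between nucleus and cytosol unstimulated and with bicuculline, where more genes were tested. With median-ratio scaling it was 31 in cytosol, where the share of calls that were higher went from 97.2% to 61.3%, and 153 for the difference of nucleus and cytosol (15.2% to 69.9% higher), and with a pseudocount of 0.1 it was 11 between DRB and triptolide.

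Leaving out 1 library at a time, the number of genes called was 27 to 38 for bicuculline under DRB, 50 to 68 for BDNF under DRB, 9 to 20 for BDNF against bicuculline, 1 to 5 for triptolide whole cells, 21 to 520 for triptolide nuclei, 12 to 334 for triptolide cytosol, 9 to 671 for nuclear minus cytosolic response, 9 to 19 for DRB minus triptolide response. For Gadd45b and Gadd45g the range crossed 0 or the threshold for -0.18 to 0.13 for Gadd45b in BDNF against bicuculline, -0.26 to 0.048 for Gadd45b in nuclear minus cytosolic response, -0.27 to 0.082 for Gadd45g in nuclear minus cytosolic response, -0.14 to 0.15 for Gadd45b in nucleus against cytosol unstimulated, -0.10 to 8.0e-05 for Gadd45g in nucleus against cytosol unstimulated, -0.25 to 0.055 for Gadd45b in nucleus against cytosol with bicuculline, -0.33 to 0.026 for Gadd45g in nucleus against cytosol with bicuculline, 1.82 to 2.14 for Gadd45b in DRB minus triptolide response. For list genes named with bicuculline under DRB, Trp53 ranged from -0.081 to 0.12, Map3k4 from -0.093 to 0.043 and Gadd45gip1 from -0.025 to 0.17, none of them called. For Gadd45a, which had no test, the range crossed 0 in 7 of 10 comparisons, within -0.19 to 0.22. Low values limit Gadd45a throughout and Gadd45g under triptolide.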
